A study of Mus musculus with 24 samples.

Results

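The 10 genes described here, Lyve1, Stab1, Mrc1, Cd163, Folr2, Vsig4, Pf4, F13a1, Cbr2 and Maf, are markers by which tissue-resident macrophages of the mouse heart are commonly recognised. They were taken by symbol from the array: 13 probes carried an accession of one of them, and all 10 genes were measured, among 15875 genes tested. Total RNA came from the area at risk in the anterior wall of the heart of male C57BL6/J mice, in which the left anterior descending coronary artery had been closed for 45 min and then reopened for 24, 48 or 168 h. At each time, 4 arrays came from mice given insulin-like growth factor 1 (IGF1), as a subcutaneous bolus of 40 ng/g at reopening of the artery, with a micro-osmotic pump releasing a further 1 µg/g daily over the first 3 days, and 4 came from mice given vehicle, phosphate-buffered saline with bovine serum albumin. The vehicle samples are labelled as ischemic, although the series description calls the controls sham-operated. The sample labels were followed, so every group is read as infarcted and reperfused. The labels do not name the animals, and p-values therefore measure the spread between these samples, which may be technical.

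Resident macrophages seed the heart before birth, renew themselves in place and take up dying cells, iron-bearing proteins and matrix fragments, whereas monocytes recruited from the blood after an infarct first digest and later help to rebuild the tissue. Most of the 10 products are surface receptors for this clearance: LYVE1 binds hyaluronan, stabilin-1 (Stab1) and the mannose receptor (Mrc1) internalise matrix proteins and glycoproteins, CD163 takes up haemoglobin bound to haptoglobin, folate receptor beta (Folr2) binds folate, and VSIG4 binds fragments of complement C3. Pf4 encodes the chemokine platelet factor 4, F13a1 the catalytic subunit of clotting factor XIII, Cbr2 a carbonyl reductase, and Maf a transcription factor that acts in macrophage identity. None of the genes is private to resident macrophages: lymphatic endothelium also makes Lyve1 and Mrc1, sinusoidal and lymphatic endothelium Stab1, and platelets and their precursors Pf4 and F13a1. The share of recruited monocytes, and of macrophages derived from them, in the 10 transcripts was not tested.

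Promoter sequence was available for 8 of the 10 genes, as 10 RefSeq windows (build GRCm38.p6) that run from 250 bases before to 50 bases after a transcription start. Each window was searched on both strands for 2 short motifs, a binding site of the PU.1 type (GAGGAAGT), PU.1 being the factor that myeloid cells require, and a site of the Maf family (TGCTGAC). The 3 windows with a match are printed 5′ to 3′ along the gene, with the match in capitals. Those of Pf4 and F13a1 hold the PU.1-type site, and that of Cbr2 holds the Maf site.
Pf4: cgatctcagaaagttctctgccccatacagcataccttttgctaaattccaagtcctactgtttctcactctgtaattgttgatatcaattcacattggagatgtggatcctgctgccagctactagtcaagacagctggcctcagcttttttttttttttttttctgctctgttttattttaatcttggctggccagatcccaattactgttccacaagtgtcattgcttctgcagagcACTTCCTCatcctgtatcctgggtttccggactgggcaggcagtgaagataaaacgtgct
F13a1: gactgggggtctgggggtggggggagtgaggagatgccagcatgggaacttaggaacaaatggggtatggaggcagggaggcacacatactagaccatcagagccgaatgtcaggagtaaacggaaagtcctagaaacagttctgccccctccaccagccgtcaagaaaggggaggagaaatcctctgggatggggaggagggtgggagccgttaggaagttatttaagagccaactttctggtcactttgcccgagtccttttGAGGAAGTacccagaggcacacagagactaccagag
Cbr2: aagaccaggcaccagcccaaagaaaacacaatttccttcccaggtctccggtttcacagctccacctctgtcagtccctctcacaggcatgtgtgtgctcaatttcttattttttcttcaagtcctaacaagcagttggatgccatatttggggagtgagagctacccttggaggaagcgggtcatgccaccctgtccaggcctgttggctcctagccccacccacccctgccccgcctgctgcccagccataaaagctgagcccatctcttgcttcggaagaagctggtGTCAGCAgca
The Pf4 window lies at chr5:90772185-90772484 on the plus strand and its match, read on the minus strand of the promoter, begins 10 bases before the start. The F13a1 window, that of the second of its listed starts, lies at chr13:37049164-37049463 on the minus strand and holds its match 14 bases after the start. The Cbr2 window lies at chr11:120731972-120732271 on the minus strand, with its match 40 bases after the start. The PU.1-type letters occurred in 3.2% and the Maf letters in 4.67% of 32851 promoters of the same length, so matches in 3 of 10 windows describe these sequences and no more.

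Levels are on a log2 scale on which 0 is the 75th percentile of all probes of the same array and 1 unit is a factor of 2. The share of spots well above background ran from 52.8 to 62.9% over the 24 arrays, and 0 spots were saturated. Across the 24 arrays 8 of the 10 genes were well above background on every array. The exceptions were Vsig4, above background on 20 arrays, and F13a1, whose spots on vehicle replicate 3 at 48 h were marked as outliers, so that its values rest on 23 arrays. Cardiomyocyte markers were present on all arrays, with 10 of 10 measured, and so were 15 of 15 genes that most macrophages share. In whole tissue, fewer cells of a type and less RNA per cell cannot be told apart.

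**Figure D1:**
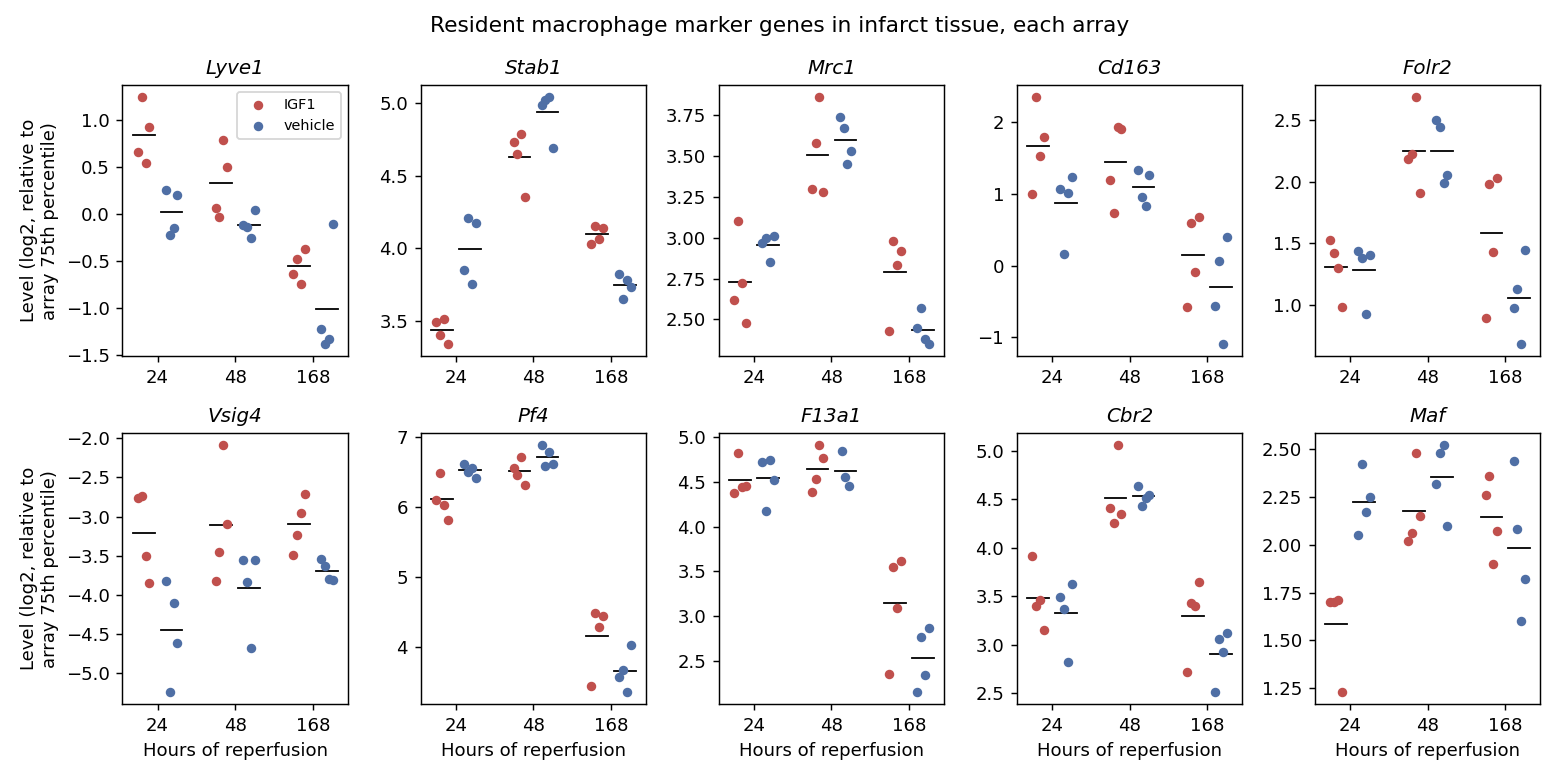
Level of each of the 10 marker genes on every array (log2 relative to the array's 75th percentile, vertical axis) at 24, 48 and 168 h of reperfusion, with IGF1 arrays in red left of vehicle arrays in blue and the group mean as a black line. At 24 h the 4 IGF1 arrays lie above the vehicle arrays for Lyve1 and below them for Stab1 and Maf, and by 168 h Pf4 and F13a1 lie far below their levels at 24 and 48 h in both treatments.

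The first comparison asks what IGF1 did to the markers at 24 h, and they did not move together. Lyve1 and Vsig4 were higher in IGF1 hearts, Stab1 and Maf were lower, and 6 genes did not pass the test. Thus 4 of 10 were called, 2 in each direction, against 16.0% of all genes tested, 8.76% higher and 7.26% lower (limma, Benjamini-Hochberg adjusted p under 0.05). IGF1 and vehicle arrays did not overlap for 1 marker that was higher and 2 that were lower, against 10.1% and 8.31% of all genes. The median difference of the 10 genes was 0 on the log2 scale, against 0.01 for all genes.

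Lyve1 had levels of 0.66, 1.24, 0.54 and 0.92 in IGF1 hearts at 24 h, against 0.26, -0.22, -0.15 and 0.20 in vehicle hearts. Every IGF1 array lay above every vehicle array, and the transcript was 1.76-fold higher (log2 difference 0.82, SE 0.23, adjusted p = 0.0221). Each of the 4 slides held 1 array of each treatment, and the difference was positive on all of them (0.40, 1.47, 0.68 and 0.73). The call was lost without IGF1 replicate 2, vehicle replicate 2 or vehicle replicate 3, with adjusted p of up to 0.0734 over all alternatives. Of 8 measured markers of lymphatic endothelium, which shares Lyve1, 1 rose at 24 h and 0 fell, with a median log2 difference of 0.18. Over all genes 8.76% were higher. The gene that rose was Prox1, the factor that specifies this endothelium (log2 difference 0.73, SE 0.20, adjusted p = 0.0187). The mean of the 8 markers per array was 0.15 to 0.73 in IGF1 hearts and 0.00 to 0.31 in vehicle hearts, so the arrays overlapped. All 8 were above background on all 24 arrays. The part of lymphatic endothelium in the Lyve1 difference was not tested.

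Vsig4 was the dimmest of the markers. It measured -2.76, -2.74, -3.50 and -3.85 in IGF1 hearts at 24 h, all 4 well above background, against -3.82, -5.24, -4.10 and -4.62 in vehicle hearts, of which 1 was. The groups overlapped by 1 array, and Vsig4 was higher with IGF1 (log2 difference 1.23, SE 0.35, adjusted p = 0.0234). With 3 of 4 vehicle arrays not above background, the size of this difference depends on the background correction. Within slides the differences were 1.06, 2.50, 0.59 and 0.76. The call was lost with another background correction (normexp), in a fit of the 24 h arrays alone and without IGF1 replicate 1, IGF1 replicate 2 or vehicle replicate 2. Over all alternatives its adjusted p reached 0.146 and its log2 difference ran from 0.39 to 1.44.

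Stab1 moved the other way. IGF1 hearts had 3.49, 3.40, 3.51 and 3.34 at 24 h, against 3.85, 4.21, 3.75 and 4.17 in vehicle hearts, so all IGF1 arrays lay below all vehicle arrays. The transcript was 1.47-fold lower with IGF1 (log2 difference -0.56, SE 0.11, adjusted p = 0.00248). Maf, the transcription factor among the markers, stood at 1.70, 1.70, 1.71 and 1.23 in IGF1 hearts, against 2.05, 2.42, 2.17 and 2.25 in vehicle hearts, again without overlap. It was 1.56-fold lower (log2 difference -0.64, SE 0.16, adjusted p = 0.0115). Both differences were negative on 4 of 4 slides, between -0.82 and -0.25 for Stab1 and between -1.03 and -0.36 for Maf, and both calls held under each of the 17 alternatives (adjusted p up to 0.038 for Stab1 and 0.0461 for Maf).

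Of the 6 markers that did not pass at 24 h, Cd163 came nearest to a rise and Pf4 to a decrease. Cd163 had 1.00, 2.35, 1.53 and 1.80 in IGF1 hearts, against 1.07, 0.16, 1.01 and 1.24 in vehicle hearts, and the groups overlapped (log2 difference 0.79, SE 0.36, adjusted p = 0.138). Its second, dimmer probe gave group means of -2.92 in IGF1 hearts and -3.78 in vehicle hearts. Pf4 had 6.10, 6.49, 6.03 and 5.82 with IGF1, against 6.61, 6.50, 6.56 and 6.42 with vehicle (log2 difference -0.41, SE 0.18, adjusted p = 0.138). The other 4 had smaller differences, with a log2 difference of -0.23 for Mrc1, 0.02 for Folr2, 0.16 for Cbr2 and -0.02 for F13a1.

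**Figure D2:**
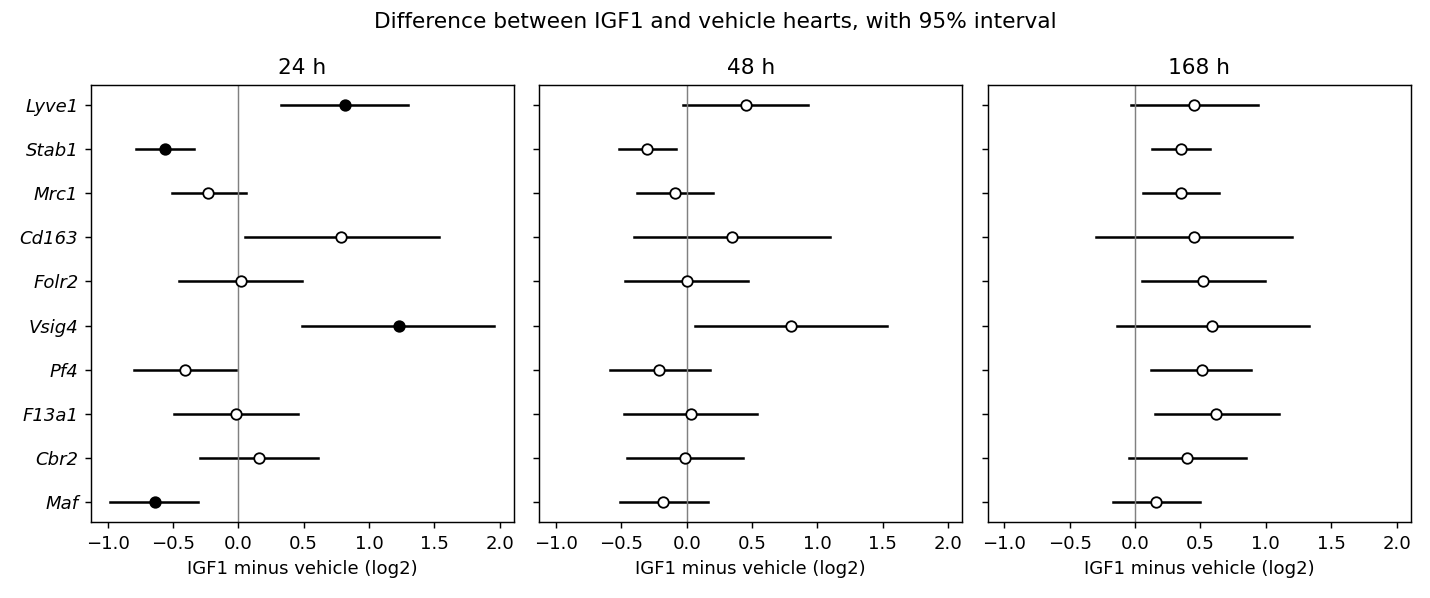
Difference between IGF1 and vehicle hearts for each marker gene (IGF1 minus vehicle, log2, horizontal axis) at 24, 48 and 168 h, with the 95% interval of the limma fit as a line and a filled point where the adjusted p was under 0.05. Filled points appear only at 24 h, to the right of 0 for Lyve1 and Vsig4 and to the left for Stab1 and Maf, and at 168 h all 10 open points lie to the right of 0.

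Genes that most macrophages share moved in 1 direction at 24 h. Of 15 measured, 9 were lower with IGF1 and 0 higher, with a median log2 difference of -0.59. Among them were the perforin-like Mpeg1 (-1.20, SE 0.16, adjusted p = 0.000299), the fractalkine receptor Cx3cr1 (-1.29, SE 0.27, adjusted p = 0.00402), the surface antigen F4/80 encoded by Adgre1 (-0.74, SE 0.16, adjusted p = 0.0049) and Csf1r, the receptor for the growth factor on which macrophages depend (-0.59, SE 0.09, adjusted p = 0.000979). The mean of the 15 genes was 2.50 to 2.94 per array in IGF1 hearts, against 3.31 to 3.39 in vehicle hearts, so the arrays did not overlap. Stab1 and Maf thus differed by about as much as this mean, and set against it on the same array they differed between the treatments by 0.00 and -0.08. On that relative scale Vsig4 was higher by 1.79, Lyve1 by 1.38 and Cd163 by 1.36, although the difference of Cd163 itself had not passed. The lower mean in IGF1 hearts raises all genes alike on this scale. On it, 7 of the 10 markers had IGF1 arrays wholly above vehicle arrays. The same held for 60.1% of all genes outside the list, so the count of 7 is near the background. The parts of macrophage number and of RNA per cell in these values were not tested.

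The other gene groups showed smaller counts at 24 h. Of 24 other measured markers of tissue-resident macrophages, 1 rose and 3 fell with IGF1 (median 0.01). This count, like that of the recruited monocyte list below, is near the 16.0% called over all genes. The solute carrier Slco2b1 rose (log2 0.57, SE 0.15, adjusted p = 0.0138), while the genes that fell included the lectin Cd209d (-0.70, SE 0.23, adjusted p = 0.0408) and the mouse's own Igf1 (-0.53, SE 0.16, adjusted p = 0.0296). Of 15 markers of recruited monocytes, 1 rose and 2 fell: Ly6c2 was higher (0.49, adjusted p = 0.0148), and the chemokine receptor Ccr2 (-1.07, adjusted p = 0.000485) and fibronectin, Fn1 (-0.79, adjusted p = 0.00248), were lower. Among cardiomyocyte markers 5 of 10 were higher and 0 lower (median 0.35), led by the calcium pump Atp2a2 (0.78, adjusted p = 0.00401), with means of 7.47 to 7.84 in IGF1 hearts, against 6.99 to 7.43 in vehicle hearts. The part of cardiomyocyte RNA in the marker differences was not tested. Of 11 neutrophil genes 1 rose and 0 fell, and 0 of 10 genes of blood endothelium, 8 of platelets and 7 of erythroid cells passed.

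Ligands, partners and regulators of the markers were also examined at 24 h. Of 16 measured ligands and partners, 0 rose and 3 fell with IGF1 (median -0.20), among them Hmox1, the haem oxygenase that degrades the haem taken up through CD163 (log2 -0.77, SE 0.18, adjusted p = 0.00811), and Has2, a synthase of the hyaluronan that LYVE1 binds (-0.59, SE 0.16, adjusted p = 0.0197). Of 18 measured regulators of macrophage identity, 3 rose and 5 fell. The interleukin 10 receptor subunit Il10ra (-0.69, SE 0.13, adjusted p = 0.00249) and the transcription factor Irf4 (-1.16, SE 0.23, adjusted p = 0.00335) were lower, and the oxysterol receptor Nr1h3 was higher (0.42, SE 0.10, adjusted p = 0.00868).

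At 48 h no marker passed the test between IGF1 and vehicle hearts (0 of 10, against 0.0126% of all genes, in limma), and 2 of the 10 markers and 1410 of all genes had an unadjusted p under 0.05. Stab1 measured 4.73, 4.65, 4.79 and 4.35 with IGF1, against 4.99, 5.02, 5.04 and 4.69 with vehicle, a log2 difference of -0.30 (SE 0.11, adjusted p = 0.422). Its groups overlapped only through vehicle replicate 4. Vsig4 differed by 0.80 (SE 0.35, adjusted p = 0.533). On a slide that held 2 arrays of each treatment it differed by 0.07, and on a slide with 2 IGF1 arrays and 1 vehicle array by 2.09. That vehicle array, at -4.68, was not well above background for Vsig4. For the other 8 genes the difference lay between -0.21 and 0.45.

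At 168 h, after the pump had stopped, no marker passed either (0 of 10, against 0% of all genes, in limma), and 5 of the 10 markers and 615 of all genes had an unadjusted p under 0.05. A fit of the 168 h arrays alone was added after the data had been seen. With the replicate number as a block, 8 of the 10 markers and 1355 genes had an unadjusted p under 0.05 in it. Without the block, 3 markers and 721 genes had one, and 0 genes passed the adjustment either way. The labels give no pairing by replicate number, and same-numbered arrays shared a slide at 168 h. All 10 differences were positive, from 0.16 for Maf to 0.62 for F13a1, with a median of 0.45 against -0.01 for all genes. Stab1 measured 4.03, 4.15, 4.06 and 4.14 in IGF1 hearts, against 3.82, 3.65, 3.78 and 3.73 in vehicle hearts (log2 difference 0.35, SE 0.11, adjusted p = 0.857). Vsig4 measured -3.49, -3.24, -2.95 and -2.71 in IGF1 hearts, against -3.54, -3.63, -3.80 and -3.81 in vehicle hearts (0.59, SE 0.35, adjusted p = 1). In these 2 of the 10 genes the IGF1 arrays lay wholly above the vehicle arrays, which held for 1.11% of all genes, and 1.54% lay wholly below. On slide 1, with 3 arrays of each treatment, the differences of the 10 genes ran from 0.13 to 0.69, and on slide 4, with 1 array of each, 9 were positive while Lyve1 was at -0.26.

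The mean of the 15 general macrophage genes was 3.66 to 4.17 in IGF1 hearts at 168 h, against 3.33 to 3.83 in vehicle hearts. Set against that mean, the 10 markers differed between treatments by -0.16 to 0.30, and for 0 of the 10 were the arrays of the treatments apart, against 0.0694% of genes wholly above and 5.53% wholly below on this scale. At 168 h, vehicle replicates 1 and 4 had recruited monocyte means of 2.20 and 2.40, against 0.63 and 0.58 in vehicle replicates 2 and 3, while the 4 IGF1 arrays lay between 1.39 and 2.25. Vehicle replicate 3 alone had an erythroid mean of 1.60, the other 7 arrays at this time lying between -2.21 and -0.67. What these arrays contributed to the differences at 168 h was not tested.

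The IGF1 difference itself changed between 24 and 168 h for part of the markers. The change was positive for Stab1 (log2 0.91, SE 0.15, adjusted p = 0.00222), Pf4 (0.92, SE 0.26, adjusted p = 0.031) and Maf (0.80, SE 0.23, adjusted p = 0.0292), 3 of 10 against 11.1% of all genes (5.73% positive and 5.35% negative). Stab1 was thus below vehicle in IGF1 hearts at 24 h and had a positive difference at 168 h. It was also the single marker called by the F-test over all 3 times (adjusted p = 0.00734, 1 of 10 against 5.60% of all genes). The call of Stab1 held under all 24 alternatives, whereas that of Pf4 was lost under 11 (adjusted p up to 0.0663) and that of Maf under 7 (up to 0.0641). Lyve1 and Vsig4 gave negative changes that did not pass (-0.37, SE 0.33, and -0.63, SE 0.50). Of the 15 general macrophage genes 9 changed in the direction of Stab1 and 0 in the other (median 0.90), among them Mpeg1 (1.53, adjusted p = 0.00125) and Csf1r (0.90, adjusted p = 0.00125). Between 24 and 48 h the IGF1 difference changed for 0 of 10 markers (0.0693% of all genes, in limma) and 0 had an unadjusted p under 0.05.

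Averaged over the 3 times, Lyve1 and Vsig4 had the clearest differences among the markers without passing. Lyve1 stood 0.57 above vehicle (SE 0.13, adjusted p = 0.0602) and Vsig4 0.87 above (SE 0.20, adjusted p = 0.0598). The count was 0 of 10 markers, against 0.472% of all genes, with 5 of the 10 and 1924 of all genes at an unadjusted p under 0.05. With slide as a block, 1 marker passed, Lyve1.

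**Figure D3:**
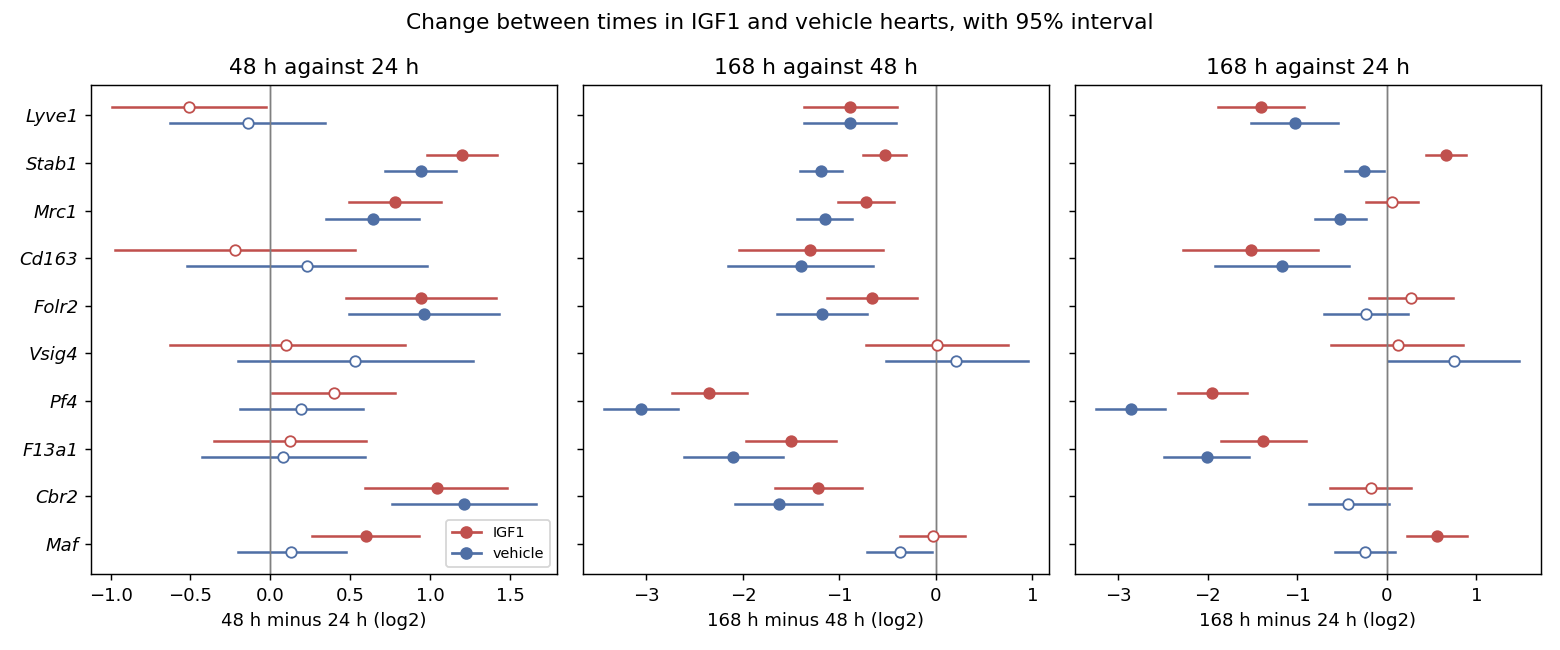
Change of each marker gene between times (log2, horizontal axis) in IGF1 hearts (red, upper of each pair) and vehicle hearts (blue, lower), with 95% intervals and filled points where the adjusted p was under 0.05. Folr2, Mrc1, Cbr2 and Stab1 lie right of 0 from 24 to 48 h in both treatments, and from 48 to 168 h all genes but Vsig4 and Maf have filled points left of 0, Pf4 furthest.

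From 24 to 48 h, 5 of 10 rose in IGF1 hearts and 4 in vehicle hearts, with 0 lower in either, against 37.6% of all genes called in IGF1 hearts (16.3% higher and 21.3% lower) and 22.7% in vehicle hearts (11.2% higher and 11.5% lower). The same 5 and 4 markers had arrays at 48 h wholly above those at 24 h, as did 15.7% of all genes in IGF1 hearts and 10.9% in vehicle hearts. Folr2, Mrc1, Cbr2 and Stab1 rose in both. The endocytic receptor Stab1 rose by 1.20 in IGF1 hearts (SE 0.11, adjusted p = 1.05e-07) and by 0.94 in vehicle hearts (SE 0.11, adjusted p = 9.29e-06). On the probe for the reductase Cbr2 the arrays at 48 h read 4.41, 4.26, 5.06 and 4.35 with IGF1, against 3.92, 3.40, 3.46 and 3.15 at 24 h, a rise of 1.04 (SE 0.22, adjusted p = 0.000894). Vehicle arrays read 4.64, 4.43, 4.51 and 4.55 at 48 h, against 3.49, 3.37, 2.82 and 3.63 at 24 h, a rise of 1.21 (SE 0.22, adjusted p = 0.000565). In neither treatment did the 2 times overlap for Cbr2.

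The folate receptor Folr2 had 2.18, 2.22, 2.68 and 1.91 in IGF1 hearts at 48 h, against 1.53, 1.42, 1.30 and 0.99 at 24 h (log2 difference 0.94, SE 0.23, adjusted p = 0.00289). Its vehicle values were 2.50, 2.44, 1.99 and 2.05 at 48 h, against 1.44, 1.38, 0.93 and 1.41 at 24 h (0.96, SE 0.23, adjusted p = 0.00477). The increments in the treatments were nearly equal, and the times did not overlap in either. The mannose receptor gene Mrc1 rose by 0.78 in IGF1 hearts (SE 0.14, adjusted p = 0.000221) and by 0.64 in vehicle hearts (SE 0.14, adjusted p = 0.00252). Maf rose in IGF1 hearts by 0.60 (SE 0.16, adjusted p = 0.00643) and differed by 0.13 in vehicle hearts (SE 0.16, adjusted p = 0.593), but the difference between these changes did not pass (0.46, SE 0.23, adjusted p = 0.298).

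Several genes around the markers moved alongside between 24 and 48 h. Among the general macrophage genes 11 of 15 rose and 2 fell in IGF1 hearts, and 8 rose and 1 fell in vehicle hearts. Adgre1 rose by 1.29 in IGF1 hearts and 0.84 in vehicle hearts (adjusted p = 3.92e-06 and 0.000878). Of the other resident markers 6 of 24 rose in IGF1 hearts and 9 in vehicle hearts, with 2 lower in each, led by the chemokine Ccl8 (2.41 in IGF1 hearts and 2.04 in vehicle hearts, adjusted p = 7.74e-06 and 0.000146) and by Igf1 (1.56 and 0.95, adjusted p = 4.63e-07 and 0.000362). The 18 regulators went both ways, with 2 higher and 5 lower in IGF1 hearts and 2 higher and 2 lower in vehicle hearts. Spic, a transcription factor of iron-recycling macrophages, rose by 1.69 in IGF1 hearts and 1.15 in vehicle hearts (adjusted p = 1.25e-05 and 0.00129). Of 16 ligands and partners 7 rose and 1 fell in IGF1 hearts, and 8 rose and 0 fell in vehicle hearts. Hmox1 rose by 1.09 and 0.88 (adjusted p = 0.000108 and 0.00177). Of 15 recruited monocyte genes 3 rose and 1 fell in IGF1 hearts, and 2 rose and 1 fell in vehicle hearts. The parts of recruited monocytes and of macrophages in general in the rises of Stab1, Mrc1, Folr2 and Cbr2 were not tested.

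From 48 to 168 h, 8 of 10 markers fell in each treatment, all but Vsig4 and Maf, and 0 rose. Of all genes, 48.8% were called in IGF1 hearts (22.6% higher and 26.2% lower) and 53.2% in vehicle hearts (25.0% higher and 28.1% lower). In 7 of the 10 markers the arrays at 168 h lay wholly below those at 48 h in each treatment, against 27.2% of all genes in IGF1 hearts and 24.3% in vehicle hearts. The median change of the 10 markers was -0.80 in IGF1 hearts and -1.19 in vehicle hearts, against 0.01 for all genes in both. No slide held IGF1 arrays of both times, and 1 slide held 1 vehicle array of each. On that slide all 10 changes were negative, from -2.59 for Pf4 to -0.16 for Lyve1. With slide as a block, 6 markers passed in IGF1 hearts and 8 in vehicle hearts. The calls lost in IGF1 hearts were those of Folr2 and Cd163.

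Pf4 had the largest change of the 10. IGF1 hearts had 3.45, 4.48, 4.28 and 4.44 at 168 h, against 6.55, 6.45, 6.72 and 6.32 at 48 h, and vehicle hearts had 3.57, 3.67, 3.36 and 4.03 at 168 h, against 6.88, 6.58, 6.78 and 6.61 at 48 h. The chemokine's transcript was 5.09-fold lower at 168 h with IGF1 (log2 -2.35, SE 0.18, adjusted p = 6.24e-09) and 8.33-fold lower with vehicle (log2 -3.06, SE 0.18, adjusted p = 2.59e-10). F13a1 followed. It had 2.35, 3.55, 3.09 and 3.61 in IGF1 hearts at 168 h, against 4.39, 4.53, 4.91 and 4.77 at 48 h (log2 -1.50, SE 0.23, adjusted p = 1.97e-05). Vehicle hearts had 2.15, 2.76, 2.34 and 2.87 at 168 h, against 4.85, 4.56 and 4.46 on the 3 arrays with a value at 48 h (log2 -2.10, SE 0.24, adjusted p = 7.66e-07). In each case every array at 168 h lay below every array at 48 h. The dimmer probe of F13a1 gave means of -4.31 at 168 h and -2.26 at 48 h with IGF1, and of -4.43 at 168 h and -2.07 at 48 h with vehicle.

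Platelet genes, which share Pf4 and F13a1, fell over the same interval. Of 8 measured, 4 fell and 2 rose in IGF1 hearts, and 6 fell and 1 rose in vehicle hearts. Ppbp, another platelet chemokine, fell in IGF1 hearts (log2 -4.95, adjusted p = 9.2e-08) and in vehicle hearts (log2 -5.43, adjusted p = 2.14e-08). The mean level of the 8 genes was -3.67 to -3.13 on IGF1 arrays at 168 h and -2.41 to -1.53 at 48 h, and -3.79 to -2.02 on vehicle arrays at 168 h and -1.50 to -1.14 at 48 h. Of these genes 3 were above background on all 24 arrays, and Gp1ba, Gp5, Tubb1 and Gfi1b were not among the genes measured. Recruited monocyte genes fell as well, 8 of 15 in each treatment, with 2 higher in IGF1 hearts and 1 in vehicle hearts. The lectin-like Chil3 fell in IGF1 hearts (log2 -5.55, adjusted p = 2.39e-06) and in vehicle hearts (log2 -6.48, adjusted p = 2.67e-07). Of 11 neutrophil genes 8 fell and 0 rose in each treatment. The parts of platelets, recruited monocytes and neutrophils in the fall of Pf4 and F13a1 were not tested.

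**Figure D4:**
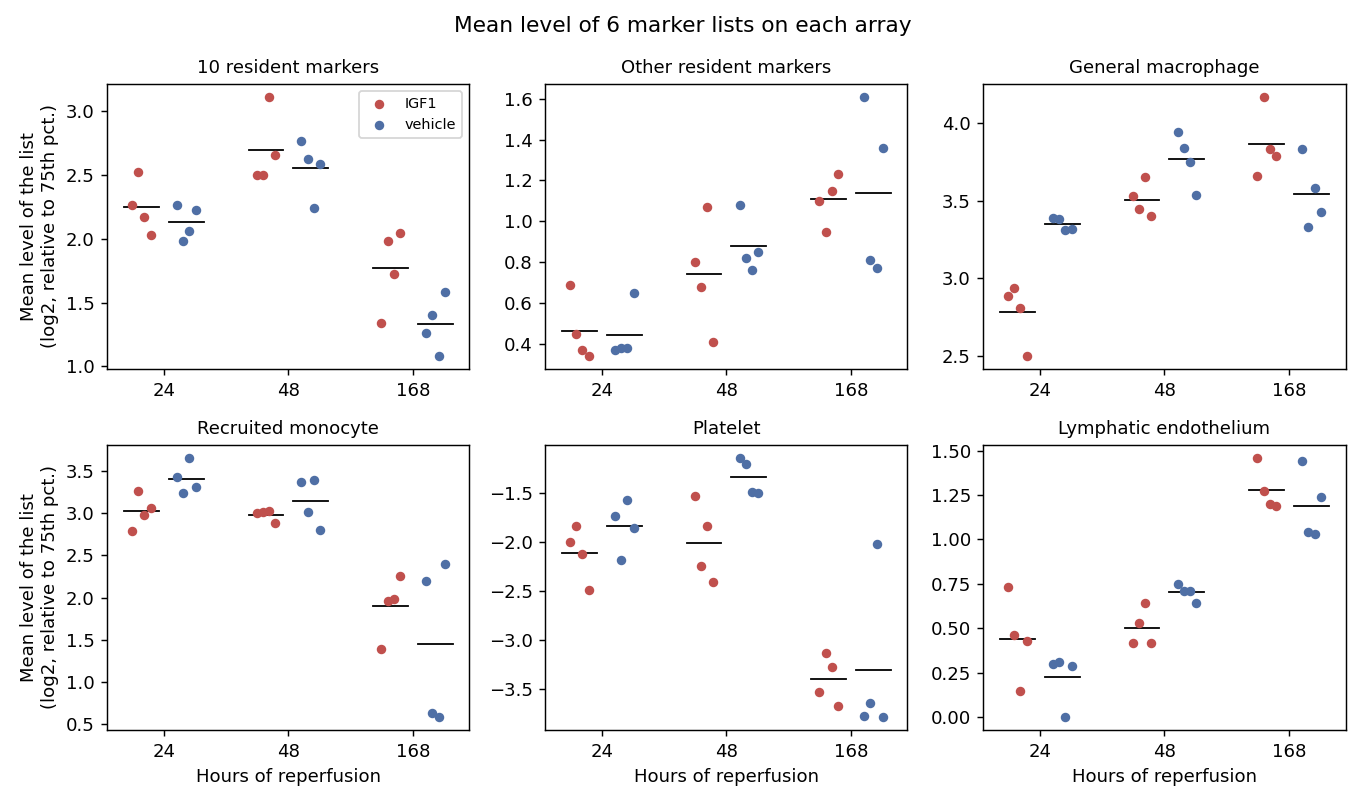
Mean level of the genes of 6 marker lists on every array (log2 relative to the array's 75th percentile, vertical axis) at 24, 48 and 168 h, with IGF1 arrays in red left of vehicle arrays in blue and the group mean as a black line. The mean of the 10 resident markers, of the recruited monocyte list and of the platelet list is lower at 168 h than at 48 h in both treatments, while that of the other resident markers and of the lymphatic list is higher, and the general macrophage list separates IGF1 from vehicle arrays at 24 h. For the other resident markers the arrays at 48 and 168 h overlap in both treatments.

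The 3 receptor genes Folr2, Mrc1 and Stab1, which had risen by 48 h, were lower again at 168 h, as was Cbr2. Cbr2 fell by 1.22 in IGF1 hearts and 1.63 in vehicle hearts (SE 0.22 each, adjusted p = 9.2e-05 and 2.55e-06). Stab1 fell by 0.53 and 1.19 (SE 0.11 each, adjusted p = 0.000305 and 1.97e-08). Mrc1 fell by 0.72 in IGF1 hearts, with 2.43, 2.98, 2.83 and 2.92 at 168 h against 3.30, 3.58, 3.86 and 3.28 at 48 h (SE 0.14, adjusted p = 0.000217). Vehicle hearts had 2.45, 2.57, 2.38 and 2.35 at 168 h, against 3.74, 3.67, 3.45 and 3.53 at 48 h, a fall of 1.15 (SE 0.14, adjusted p = 7.49e-07). The 2 times did not overlap for Mrc1 in either treatment. Folr2 fell by 0.66 in IGF1 hearts (SE 0.23, adjusted p = 0.0188), where its arrays at the 2 times overlapped, and by 1.18 in vehicle hearts (SE 0.23, adjusted p = 0.000168), where they did not. The call in IGF1 hearts was lost under 5 of 17 alternatives (adjusted p up to 0.152), namely slide as a block, a fit of these groups alone, and without replicate 3 at 48 h or replicate 1 or 3 at 168 h.

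Lyve1 and Cd163 showed no change that passed from 24 to 48 h and fell by 168 h. Cd163 had -0.57, 0.59, -0.09 and 0.68 in IGF1 hearts at 168 h, against 1.20, 0.74, 1.93 and 1.91 at 48 h (log2 -1.30, SE 0.36, adjusted p = 0.00517). In vehicle hearts it had -0.56, 0.07, -1.09 and 0.40 at 168 h, against 1.34, 0.96, 0.83 and 1.27 at 48 h (log2 -1.40, SE 0.36, adjusted p = 0.00262), and the times did not overlap in either treatment. Lyve1 had -0.64, -0.48, -0.74 and -0.37 in IGF1 hearts at 168 h, against 0.06, -0.03, 0.79 and 0.50 at 48 h (log2 -0.89, SE 0.23, adjusted p = 0.00335). Vehicle hearts had -1.22, -1.38, -1.33 and -0.11 at 168 h, against -0.12, -0.14, -0.26 and 0.04 at 48 h (log2 -0.89, SE 0.23, adjusted p = 0.00292). The arrays overlapped in vehicle hearts through replicate 4 at 168 h, which stood more than 1 unit above the other 3. Over the same interval 5 of 8 lymphatic markers rose in each treatment, with 1 lower in IGF1 hearts and 2 in vehicle hearts.

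Between 24 and 168 h the endpoints differed by gene. In IGF1 hearts 4 of 10 markers were lower at 168 h and 2 higher, and in vehicle hearts 6 were lower and 0 higher, against 58.5% of all genes called in IGF1 hearts (24.6% higher and 33.9% lower) and 60.2% in vehicle hearts (28.1% higher and 32.1% lower). Taken over both directions, 6 of 10 were called in each treatment, near the share of all genes. Pf4, F13a1, Cd163 and Lyve1 were lower in both. Pf4 was lower in IGF1 hearts (log2 -1.95, SE 0.18, adjusted p = 2.1e-08) and in vehicle hearts (log2 -2.86, SE 0.18, adjusted p = 1.04e-10). Stab1 ended 0.66 above its level at 24 h in IGF1 hearts (SE 0.11, adjusted p = 1.83e-05), whereas in vehicle hearts it ended lower (log2 -0.25, SE 0.11, adjusted p = 0.0463), a call lost under 11 of 17 alternatives. Maf was higher in IGF1 hearts by 0.56 (SE 0.16, adjusted p = 0.00485) and differed by -0.24 in vehicle hearts (SE 0.16, adjusted p = 0.207). Mrc1 was lower in vehicle hearts (log2 -0.52, SE 0.14, adjusted p = 0.00296) and differed by 0.06 in IGF1 hearts. Vsig4 passed in no comparison of times.

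Lyve1 ran from its highest group, IGF1 at 24 h, down to its lowest, vehicle at 168 h, with means of 0.84 ± 0.31, 0.33 ± 0.38 and -0.56 ± 0.16 at 24, 48 and 168 h in IGF1 hearts, against 0.02 ± 0.24, -0.12 ± 0.13 and -1.01 ± 0.60 in vehicle hearts (SD, n = 4). In the order of these means each group's arrays overlapped those of the next, except that all vehicle arrays at 48 h lay above the IGF1 arrays at 168 h. Stab1 had means of 3.43 ± 0.08, 4.63 ± 0.19 and 4.10 ± 0.06 in IGF1 hearts, against 3.99 ± 0.23, 4.93 ± 0.16 and 3.74 ± 0.07 in vehicle hearts (SD, n = 4). Its lowest group was IGF1 at 24 h, below vehicle at 168 h without overlap, and its highest was vehicle at 48 h, while the arrays of vehicle at 24 h overlapped with those of IGF1 at 168 h and of vehicle at 168 h.

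Of the other 24 markers of resident macrophages, 9 rose from 48 to 168 h and 4 fell in IGF1 hearts, and 7 rose and 7 fell in vehicle hearts, with medians of 0.41 and 0.35. The difference between these markers and the 10 genes was not tested. The prostaglandin-degrading enzyme Hpgd rose by 1.97 in IGF1 hearts and 1.88 in vehicle hearts (adjusted p = 2.48e-08 and 3.22e-08). The chemokine Ccl24 fell by 2.74 in vehicle hearts (log2, SE 0.41, adjusted p = 1.28e-05). General macrophage genes went both ways, with 9 of 15 higher and 3 lower in IGF1 hearts and 4 higher and 6 lower in vehicle hearts. Cx3cr1 rose by 1.97 in IGF1 hearts (adjusted p = 4.36e-06), and Cd68 fell by 1.53 in vehicle hearts (adjusted p = 5.08e-06). Among ligands and partners, Hmox1 fell in IGF1 hearts (log2 -2.49, adjusted p = 2.48e-09) and in vehicle hearts (log2 -3.70, adjusted p = 1.72e-11). Has2 fell in both as well (log2 -0.99 and -1.76, adjusted p = 4.3e-05 and 3.21e-08), whereas complement C3 rose by 1.96 and 1.70 (adjusted p = 2.62e-07 and 1.18e-06).

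The markers thus followed more than 1 course over time, an arrangement read from the values themselves. The arrays at 168 h stood apart from those at 24 and 48 h for several genes, so likeness between genes is described within the earlier 16 arrays and within the 8 arrays at 168 h. Folr2 and Cbr2 correlated at 0.96 over the 16 arrays and 0.85 over the 8 (Pearson), and Folr2 and Mrc1 at 0.93 and 0.83. For Lyve1 and Cd163 the values were 0.82 and 0.69. F13a1 and Pf4 correlated at 0.46 over the 15 earlier arrays with both values and at 0.95 over the 8 arrays at 168 h. Vsig4 stood apart from Stab1 among the earlier arrays, at -0.12, and not at 168 h, at 0.82. These points share arrays and groups, and the correlations are descriptions.

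Ranked by the correlation over all arrays, the genes most like Pf4 were the monocyte-attracting chemokines Ccl2 and Ccl7. Ccl2 correlated with Pf4 at 0.84 over the 16 arrays at 24 and 48 h and at 0.82 over the 8 arrays at 168 h, and Ccl7 at 0.83 and 0.79. Like Pf4, Ccl2 fell from 48 to 168 h, in IGF1 hearts (log2 -4.02, SE 0.29, adjusted p = 2.51e-09) and in vehicle hearts (log2 -4.57, SE 0.29, adjusted p = 5.33e-10). By the same ranking Chil3 was most like F13a1, at 0.968 over 23 arrays. It correlated at 0.55 over 15 earlier arrays and 0.83 over 8 at 168 h. Cox16 was closer to F13a1 among the earlier arrays, at 0.70, and Tuba3a at 168 h, at 0.84. Mrc1 was closest to Asf1b, a histone chaperone, at 0.92 and 0.82, and Stab1 to Mboat1, at 0.98 over the earlier arrays and 0.14 at 168 h. Alox5, the arachidonate lipoxygenase, ranked first for Cd163 and second for Lyve1 over all arrays. With Cd163 it stood at 0.61 among the earlier arrays and 0.92 at 168 h, and with Lyve1 at 0.71 and 0.72. Hmga2 was closer to Cd163 among the earlier arrays, at 0.71, and Fam241a at 168 h, at 0.93. The gene most like the mean of all 10 markers was Gins1, a subunit of the replication helicase, at 0.927 over 24 arrays and 0.72 after the group means were removed.

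**Figure D5:**
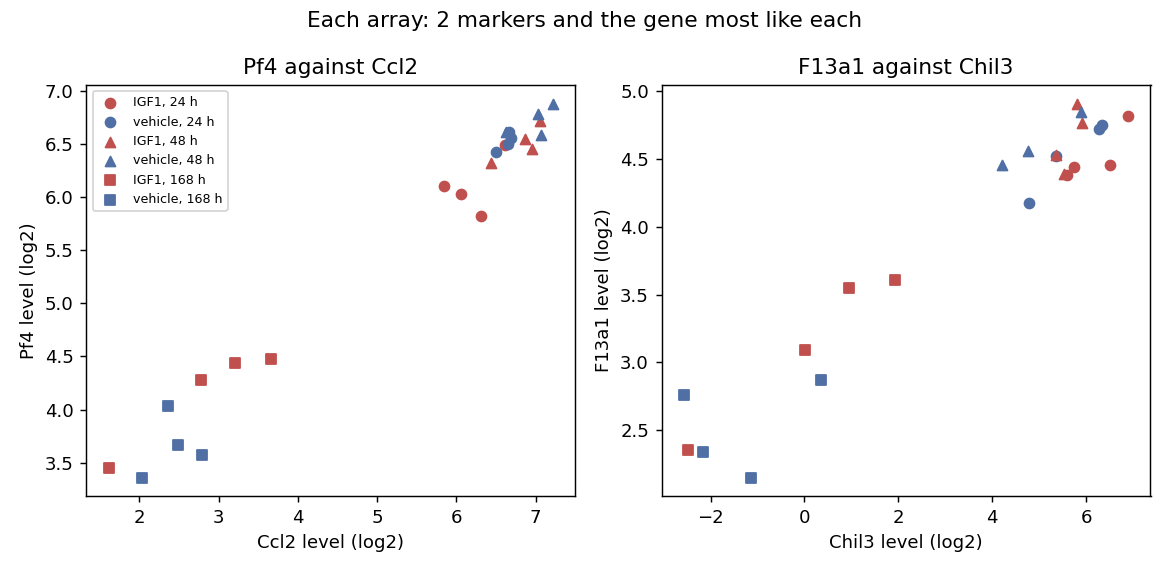
Level of Pf4 against that of Ccl2 and of F13a1 against that of Chil3 on each array (log2 relative to the array's 75th percentile, both axes), with IGF1 arrays in red, vehicle arrays in blue, circles for 24 h, triangles for 48 h and squares for 168 h. In both panels the arrays at 168 h form a separate cluster at low values, and within each cluster arrays with more Ccl2 tend to have more Pf4.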

How the data were processed

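RNA of 24 samples was hybridised, 1 sample per array in 1 colour (Cy3), to the Agilent array SurePrint G3 Mouse GE 8x60K. Per the file headers, the deposited processed signal is an intensity that Agilent Feature Extraction 12.0.3.2 had corrected for background within each array. A second, deposited table of log2 values covers 33957 probes. It was used as a check and for an alternative fit. For the 33934 probes found in both, it differed from the log2 values computed here by 1 offset per probe and 1 per array. The array offsets were at most 0.00253, and the residual SD was at most 2.19e-06.

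Control spots and outlier spots were left out, spots of one probe were averaged, and log2 of the signal minus the array's 75th percentile (372 to 622 before log2) was the measure. Symbols came from the array's accessions through a RefSeq gene table: 33767 of 56605 probes (59.7%) had 1 symbol, 22838 none and 0 several. The brightest probe well above background on at least 4 of 24 arrays stood for its gene. Cd163, Cbr2 and F13a1 had 2 such probes.

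All groups were fitted together with limma 3.58.1 in R 4.3.3 (lmFit, 1 mean per group, 18 residual degrees of freedom, eBayes, two-sided, Benjamini-Hochberg over all 15875 genes of a comparison, threshold 0.05). Adjusted p-values, SE and 95% intervals come from this fit, which was tested on simulated data. With 4 arrays per group, their number sets the precision. The arrays lay on 4 slides, and slide was tried as a block. Other alternatives were a block by replicate number, normexp (offset 50), quantile normalization, other filters on dim probes, the mean of a gene's probes, only the groups compared, and leaving out each array. The deposited table of log2 values was fitted as a further alternative. Same-numbered IGF1 and vehicle arrays correlated in their deviations from the group means at 0.19 to 0.50 at 168 h. At 24 and 48 h they did so at -0.05 to 0.13. Differently numbered arrays were not compared. Same-numbered arrays shared a slide at 24 h and at 168 h, and at 48 h all but those of replicate 4 did. At 24 and 48 h a shared slide thus came with correlations of at most 0.13. The correlations at 168 h cannot tell pairing by replicate number from a shared slide, since every same-numbered pair shared one. The labels give no shared litter, batch or day.

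The 10 genes, the marker lists and the tests were chosen with earlier results of these data known. All 10 genes are reported in every comparison. Of each other list the counts are given with up to 4 genes of smallest p per comparison, of which the text gives a part. Some genes of these lists are counted but not reported here by name.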

Additional observations from a re-analysis of the deposited data

Results flagged for a closer look

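In 4 of the 59 groups of 4 arrays examined over the 10 markers, 1 array lay far from the other 3 by Dixon's 95% limit, and chance marks about 1 group in 20. Lyve1 was at -0.11 in vehicle replicate 4 at 168 h, the others lying between -1.38 and -1.22. Folr2 was at 0.93 in vehicle replicate 3 at 24 h, against 1.38 to 1.44. Stab1 was at 4.69 in vehicle replicate 4 at 48 h, against 4.99 to 5.04. Maf was at 1.23 in IGF1 replicate 4 at 24 h, against 1.70 to 1.71.

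The difference between IGF1 and vehicle hearts changed from 24 to 168 h, by the test of that change, for 3 markers. The change was 0.92 for Pf4, 0.91 for Stab1 and 0.80 for Maf on the log2 scale, positive in each.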

How the results depend on the processing

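Counts of called markers moved little with the processing. For the mean over times, where 0 markers passed, 1 passed with slide as a block, 1 with the replicate block, 1 with normexp and 2 with a filter at 12 arrays. For the change of the IGF1 difference from 24 to 168 h, 3 markers passed and 1 did with no filter on dim probes. The cause was not tested. The replicate block moved no other count of called markers by over 1.5 times, and within the 168 h arrays alone it called 0 markers, as did the fit without it. Leaving out 1 array at a time gave 2 to 4 markers for IGF1 against vehicle at 24 h, 0 to 0 at 48 and 168 h and 0 to 1 for the mean over times. It gave 5 to 6 in IGF1 hearts and 4 to 4 in vehicle hearts for 48 h against 24 h, 7 to 8 and 8 to 9 for 168 h against 48 h, and 6 to 7 and 5 to 7 for 168 h against 24 h. For the change of the IGF1 difference it gave 0 to 0 at 48 h, 1 to 4 at 168 h and 1 to 2 in the F-test. The count at 24 h was 2 without IGF1 replicate 2 or vehicle replicate 2 at that time. That of the change from 24 to 168 h was 1 without IGF1 replicate 4 or vehicle replicate 2 at 24 h, or IGF1 replicate 2 or vehicle replicate 3 at 168 h. The F-test called 2 without IGF1 replicate 2 at 24 h, or IGF1 replicate 1, vehicle replicate 1 or vehicle replicate 4 at 168 h. No difference that passed changed sign. Vsig4, below background on part of the vehicle arrays, is limited by signal over background.

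Counts over all genes, against which those of the markers are read, moved more. At 24 h, 2542 genes passed, against 947 in a fit of the 24 h arrays alone. Slide as a block gave 56 genes against 2 at 48 h, 165 against 75 for the mean over times, and 1528 against 889 in the F-test. Without a filter on dim probes these were 30 for the mean over times, 406 in the F-test and 999 against 1759 for the change of the IGF1 difference from 24 to 168 h. The mean of a gene's probes gave 46 for the mean over times. For the change from 24 to 48 h, 11 genes passed, against 1 with normexp, 31 with the replicate block, 275 without vehicle replicate 3 at 48 h, 229 without vehicle replicate 3 at 24 h, 123 without IGF1 replicate 4 at 24 h, and 2 without vehicle replicate 2 at 24 h or IGF1 replicate 4 at 48 h. Leaving out single arrays gave as few as 1203 genes at 24 h, without IGF1 replicate 1.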
